A study of Rattus norvegicus with 56 samples.

Results

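The 10 genes described here act in the excitatory lineage of the hippocampus and cortex, some in progenitors and some in neurons. Read from microarrays of cultured rat hippocampal neurons, they are the transcription factors Prox1, Zbtb20, Lhx2, Emx1, Emx2, Neurod1, Neurod2, Neurod6 and Tbr1, and the glutamate transporter gene Slc17a7. They were chosen by name, and each was taken by its probe with the highest mean signal among those whose reference transcript belongs to the gene. A probe matched for 9 of the 10 genes, and Emx1 is named only. All 9 passed the filter on dim probes, among 35694 probes tested, of which 17732 carried a symbol, for 13888 genes. The cells were primary cultures of hippocampi from E18 Sprague-Dawley rat embryos, and all groups shared this source and the culture conditions. Dishes were placed on a stimulation coil and received repetitive transcranial magnetic stimulation (rTMS) at 1 Hz or as intermittent theta burst stimulation (iTBS), sham treatment with the coil held away from the dish, or no treatment at all (CTR). RNA was isolated at 5 times counted from the end of the stimulation (0, 2, 8, 24 or 48 h), and for the untreated dishes at 0 h alone. The 56 arrays formed 16 groups of 3 or 4, and 1 array of the 1 Hz group at 2 h was left out because the scanner reported a failed grid (its correlation with the mean of the others was 0.0098), which left that group with 2. The labels do not say whether samples of a group came from separate cultures, so the p-values measure the spread between these samples, which may be technical.

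In the developing pallium, progenitors are given a cortical or hippocampal fate by selector genes such as Lhx2, Emx1 and Emx2. Neurons that leave the cell cycle then switch on the basic helix-loop-helix factors Neurod1, Neurod2 and Neurod6, which bind E-boxes and drive glutamatergic differentiation. Later factors mark the kind of neuron: Prox1 marks dentate granule cells, Zbtb20 marks hippocampal neurons as opposed to neighbouring cortex, and Tbr1 marks early-born glutamatergic neurons, while Slc17a7 encodes VGLUT1, which loads glutamate into synaptic vesicles.

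The promoters of 4 members are shown because the Neurod genes and Tbr1 had the largest fitted differences between series D and the mean of the other series described here, and because Neurod factors act through E-boxes. Each run is the 250 bases before the annotated start, 5′ to 3′, from RefSeq on the GRCr8 assembly, with every E-box (CANNTG, either strand) in capitals.
Neurod1, chr3:84770455-84770704, minus strand: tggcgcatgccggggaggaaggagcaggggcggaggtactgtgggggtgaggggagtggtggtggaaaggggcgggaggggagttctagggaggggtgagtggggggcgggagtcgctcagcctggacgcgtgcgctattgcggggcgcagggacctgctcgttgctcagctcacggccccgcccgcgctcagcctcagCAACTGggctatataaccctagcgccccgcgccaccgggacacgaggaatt
Neurod2, chr10:83824278-83824527, minus strand: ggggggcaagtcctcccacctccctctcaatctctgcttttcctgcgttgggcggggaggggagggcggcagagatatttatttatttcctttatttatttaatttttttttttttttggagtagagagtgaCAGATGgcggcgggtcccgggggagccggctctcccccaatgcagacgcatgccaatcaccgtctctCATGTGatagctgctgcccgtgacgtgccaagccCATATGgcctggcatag
Neurod6, chr4:86180156-86180405, minus strand: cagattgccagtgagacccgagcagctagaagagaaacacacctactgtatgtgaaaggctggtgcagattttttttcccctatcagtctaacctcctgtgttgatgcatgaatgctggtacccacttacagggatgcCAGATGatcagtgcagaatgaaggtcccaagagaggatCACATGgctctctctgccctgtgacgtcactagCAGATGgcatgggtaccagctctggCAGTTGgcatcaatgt
Tbr1, chr3:66759553-66759802, plus strand: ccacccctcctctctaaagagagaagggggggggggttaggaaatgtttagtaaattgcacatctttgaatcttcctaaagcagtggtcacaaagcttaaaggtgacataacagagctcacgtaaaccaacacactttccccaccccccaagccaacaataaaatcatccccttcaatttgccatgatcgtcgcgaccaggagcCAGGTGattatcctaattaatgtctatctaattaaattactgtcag

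A promoter was at hand for 7 of the 10 members. E-boxes of the general form CANNTG stood in 65.5% of 33469 promoters of this length, so their presence alone set no member apart. The Neurod6 promoter held 4 of them, the Neurod2 promoter 3, the Emx1 and Slc17a7 promoters 2 each, and the Neurod1 and Tbr1 promoters 1 each. No CANNTG lay in this window of Lhx2. The form CAGATG, searched on both strands and contained in CANNTG, was present in 14% of all promoters, and among the 7 members it was found at 2 places in Neurod6 and at 1 place in Neurod2. A further form searched, CAGCTG, was present in 12% of all promoters and in none of the 7 members. The homeodomain core TAATTA, present in 4.86% of promoters, was found among the members in Tbr1, at 2 places. These matches describe letters in a window and say nothing of binding.

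Levels are given as scaled log2 signal, that is, the log2 processed signal centred on each array's mean and brought to the same spread on every array, so that 0 is an array's average probe and differences are on a log2 scale. Brightness depends on the probe, so levels of different genes were not compared. Between 66.1% and 81.8% of spots on an array were well above background, and pairs of arrays correlated between 0.94 and 0.993. Markers of neurons (Map2, Tubb3, Rbfox3, Snap25, Syt1 and Stmn2) were well above background on all 55 arrays, as was every tested marker of astrocytes and of the oligodendrocyte lineage, so these were mixed cultures. In such bulk RNA, fewer cells of a type and less RNA per cell cannot be told apart.

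The sample numbers in the labels fall into 4 runs, called here series A (11 arrays used), B (12), C (17) and D (15). The labels do not say what a series is. Series A lay on 2 slides, B on 2 others and C on the remaining 3, while the D arrays were spread over all 7 slides. Series D stood apart in its cell type markers. Its 5 fibroblast genes were all higher than in the other series (median difference 4.35, and 0.03 over all probes), with a summed signal of 3295% to 5414% of an array's 75th percentile, against 278% to 1115% in A, B and C. Of its 8 oligodendrocyte lineage genes 7 were lower (median −2.56), with a summed signal of 1547% to 5091%, against 7497% to 26742% elsewhere. All 5 measured genes of dividing cells were lower (median −1.94), and 6 of 8 genes of inhibitory neurons were higher (median 1.10). Of 8 astrocyte genes 3 were higher, with Gfap at 2.19 ± 0.16, and 3 lower, with Aldh1l1 at −1.51 ± 0.12. General neuron markers were higher in 2 of 6 (Snap25 0.69 ± 0.06 and Stmn2 0.45 ± 0.08). These lists move with every series D result that follows, and their part in those results was not tested.

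More of the excitatory identity genes passed between the series than in any other comparison. All 9 measured members differed between the 4 series (limma F test over group means and series, adjusted p under 0.05), where 75.4% of all probes did. Against the mean of A, B and C, series D was higher in Neurod1, Neurod2, Neurod6, Tbr1 and Slc17a7 and lower in Lhx2 and Emx2, so that 7 of 9 members passed, where 53% of all probes passed (28.9% higher and 24.2% lower). Prox1 and Zbtb20 did not pass in that comparison. The median over the 9 members was 0.40, which is the value of the Prox1 probe, beside 0.03 over all probes.

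**Figure D1:**
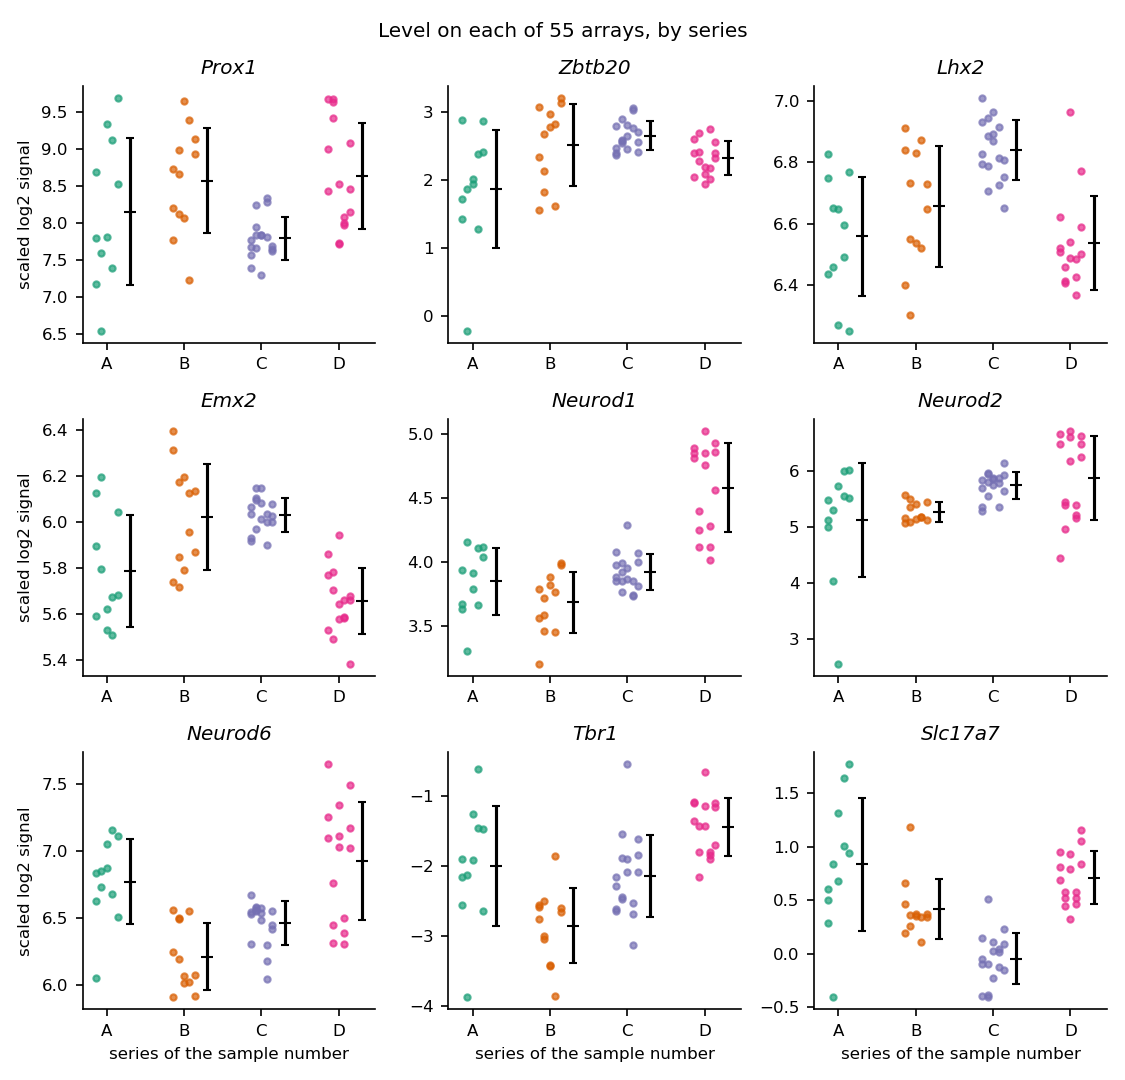
Scaled log2 signal of the 9 measured members on each of 55 arrays (points) by series, with the mean and SD of the series at the right of its points; each panel has its own vertical axis. In Neurod1 the 15 arrays of series D had a median of 4.75, and medians in A, B and C lay between 3.74 and 3.91.

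Neurod1, a factor of newly made granule and other excitatory neurons, was at 3.31 to 4.15 in series A (median 3.91), 3.20 to 3.99 in B (median 3.74), 3.73 to 4.29 in C (median 3.88) and 4.02 to 5.02 in D (median 4.75). The D arrays were mostly above all others, and the ranges overlapped only at the lower end of D. The fitted difference of D from the other series was 0.74 ± 0.07 (SE; limma, adjusted p = 3e-11). On each of the 7 slides, the mean of the D arrays was above that of the other arrays (by 0.28 to 1.19), although the arrays compared on a slide differed in their times.

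Tbr1 was dim. Its probe was well above background on 40 of 55 arrays, namely 8 of 11 in series A, 4 of 12 in B, 13 of 17 in C and 15 of 15 in D. Its level ran from −3.87 to −0.62 in A (median −1.91), from −3.85 to −1.86 in B (median −2.70), from −3.12 to −0.55 in C (median −2.16) and from −2.15 to −0.67 in D (median −1.43). The ranges overlapped, with B lowest and D highest by the median. The difference of D from the rest was 0.88 ± 0.15 (adjusted p = 5.8e-06), D was the higher on 7 of 7 slides, and B was below A by 0.94 ± 0.22 (adjusted p = 0.0013).

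Neurod6, a marker of postmitotic pyramidal neurons, was at 6.05 to 7.16 in A, 5.91 to 6.56 in B, 6.04 to 6.67 in C and 6.30 to 7.65 in D. A, C and D each reached above the highest array of B. The difference of D from the mean of the others was 0.47 ± 0.09 (adjusted p = 2.7e-05), but D and A differed by only 0.16 ± 0.12 (adjusted p = 0.31).

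Neurod2, which acts in the same cells, ran from 2.54 to 6.03 in A (median 5.50), from 5.08 to 5.57 in B, from 5.28 to 6.15 in C and from 4.45 to 6.73 in D (median 6.18). The value of 2.54 was that of the 1 Hz array of series A at 8 h. The difference of D was 0.47 ± 0.19 (adjusted p = 0.038), and it failed the threshold in 10 of 55 fits that left out an array (difference 0.35 to 0.59, adjusted p up to 0.11). The arrays whose omission did so were those of 1 Hz at 0 h (replicate 3), 2 h (1 and 3), 8 h (4) and 48 h (1), of sham at 0 h (4) and 8 h (1 and 3), and of iTBS at 2 h (4) and 8 h (3). A dimmer probe of the gene gave 0.91 ± 0.16 (adjusted p = 1.1e-05). The call of the brighter probe was also lost under normexp. The 2 probes correlated at 0.74 over the 55 arrays after the series means were subtracted.

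Slc17a7 differed mainly in series C, which lay between −0.41 and 0.51 (median −0.05), while A ran from −0.41 to 1.77 (median 0.84), B from 0.11 to 1.19 (median 0.35) and D from 0.32 to 1.15 (median 0.69). Series C was therefore lowest by the median, with A and D close to each other. D differed from the mean of the others by 0.32 ± 0.10 (adjusted p = 0.0093), from C by 0.76 ± 0.12 (adjusted p = 1.3e-06) and from A by −0.09 ± 0.14 (adjusted p = 0.66). The call against the mean of the others was lost under quantile normalization and normexp.

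The selector genes went the other way. Emx2 was at 5.38 to 5.94 in D (median 5.66), against medians of 5.68 in A, 6.04 in B and 6.03 in C. D was lower by 0.29 on average (difference −0.29 ± 0.06, adjusted p = 6.4e-05) and lower on 6 of 7 slides, though its difference from A alone was −0.14 ± 0.08 (adjusted p = 0.18). Lhx2 spanned a narrow range of 6.25 to 7.01 over all arrays, with medians of 6.60 in A, 6.69 in B, 6.83 in C and 6.50 in D. Its difference in D was −0.15 ± 0.06 (adjusted p = 0.031). That call was lost in 6 of 55 fits without an array (adjusted p up to 0.081), namely without 1 Hz at 48 h (replicate 4), sham at 48 h (1 or 3), and iTBS at 8 h (3), 24 h (3) or 48 h (4). It was also lost under 75th percentile scaling, quantile normalization, normexp and the authors' z-scores, and with the slide as a block (−0.08, adjusted p = 0.15).

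Zbtb20 was at −0.22 to 2.89 in A (median 1.95), 1.56 to 3.21 in B, 2.38 to 3.07 in C and 1.95 to 2.75 in D. Series A held the lowest array. D differed from the mean of the others by −0.06 ± 0.16 (adjusted p = 0.75), while C was above A by 0.75 ± 0.20 (adjusted p = 0.0028). A second Zbtb20 probe stayed dim on all 55 arrays and was not tested.

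The Prox1 probe, which is printed in 10 spots on each array, ran from 6.54 to 9.70 in A, 7.24 to 9.66 in B, 7.30 to 8.34 in C and 7.72 to 9.69 in D. Its values were tight in C and wide in the other series. The difference of D was 0.40 ± 0.20 (adjusted p = 0.085), and it passed when iTBS at 2 h replicate 3 or 4 was left out (0.51, adjusted p = 0.026 at the lowest), as it did under 75th percentile scaling, quantile normalization and normexp. The probe moved with many others. After the series means were subtracted, 48 other probes correlated with it above 0.95 over the 55 arrays, 11 of them with a symbol (Acbd4, Cldn15, Gca, Hivep3, Hrh4, Iba57, Pax3, Pnma3, Spag7, Spata6l and Tcf15). No other member had a probe above 0.95, and only Zbtb20, with 12, had any above 0.9. The level of the Prox1 probe also correlated with the spread of log2 signal on the array (r = −0.60). Its values are given here as those of the probe, and what these probes share was not tested.

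**Figure D2:**
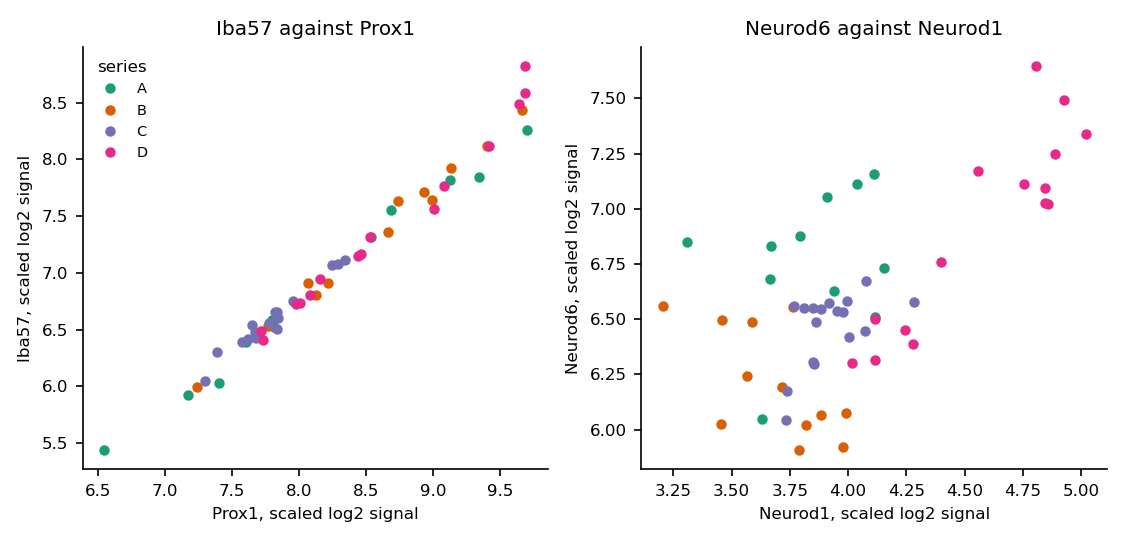
Left, the probe of Iba57 against the probe of Prox1, and right, Neurod6 against Neurod1, as scaled log2 signal on 55 arrays coloured by series. The Prox1 and Iba57 probes lie along a line in every series (r between 0.98 and 0.995), and Neurod1 and Neurod6 do so most closely in series D (r = 0.90).

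The nearest genes of the members, by Pearson correlation over 55 arrays with series means subtracted, were Iba57 (r = 0.99) and Hivep3 (0.987) for Prox1, Arb2a (0.909) and Top2b (0.907) for Zbtb20, Zfand3 (0.702) and Ctnnd2 (0.666) for Lhx2, and Echs1 (0.821) and Fam53b (0.814) for Emx2. For Neurod1 they were Nkd1 (0.764) and Dock9 (0.733), for Neurod2 Tubb2a (0.836) and Styx (0.822), and for Neurod6 Tnfrsf21 (0.882) and Matcap1 (0.877). Tbr1 was nearest to Gatad2b (0.719) and Kalrn (0.702), and Slc17a7 to Mboat7 (0.865) and Tmem259 (0.847). Each of these rests on arrays that share slides. Among the members themselves, the highest correlation was that of the Prox1 probe with Zbtb20, at 0.65 (0.39 to 0.78 within the single series). Lhx2 and Emx2 correlated at 0.56 (0.33 to 0.80), Tbr1 and Slc17a7 at 0.49 (−0.18 to 0.87), and Neurod6 and Tbr1 at 0.44 (0.42 to 0.64). Neurod1 and Neurod6 correlated at 0.48, with within-series values that ran from −0.63 in B to 0.90 in D. Other pairs went the opposite way, among them the Prox1 probe with Lhx2 at −0.50 (−0.66 to −0.22). Emx2 and Slc17a7 were at −0.49 (−0.60 to −0.21).

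Time after stimulation gave fewer calls among the members than the series did, as it did among all probes. In size the time differences were not always smaller. The Prox1 probe was at −0.72 at 48 h against 0 h, and at 0.40 in series D against the others. With the series in the fit and the 3 arms averaged, 3 of 9 members were lower at 48 h than at 0 h (Tbr1, Prox1 and Neurod1), where 27% of all probes passed and 13.4% were lower. At 24 h 1 of 9 members was lower (Neurod1), where 14% of all probes passed and 5.39% were lower. None passed at 8 h (2.37% of all probes) or at 2 h (0% of all probes, with 0 called). In limma no member had an unadjusted p under 0.05 at 2 or 8 h, the smallest being 0.12.

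Tbr1 had a median of −1.91 over the 11 treated and sham arrays of 0 h (−3.43 to −0.55). The medians of 2 and 8 h were −1.55 and −1.79, that of 24 h was −2.16, and that of 48 h was −2.58 (−3.87 to −1.80). The lower levels at 48 h went with fewer arrays well above background, 5 of 11 against 10 of 11 at 0 h. The fitted difference of 48 h from 0 h was −0.80 ± 0.21 (adjusted p = 0.0044), and it kept its call in all 55 fits that left out an array. In 9 of 10 pairs of arrays matched for series and arm the later array was lower.

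Neurod1 fell by 0.33 at 24 h (difference −0.33 ± 0.11, adjusted p = 0.030), with the later array lower in 8 of 8 matched pairs, and by 0.27 at 48 h (−0.27 ± 0.10, adjusted p = 0.041), with 8 of 10 pairs lower. The call at 24 h was lost in 8 of 55 fits without an array (differences of −0.37 to −0.29 over all 55, adjusted p up to 0.083), and that at 48 h in 11 of 55 (−0.33 to −0.19, adjusted p up to 0.18). At both times it was lost without 1 Hz at 0 h (replicate 1 or 3), sham at 0 h (3), or iTBS at 0 h (1 or 4). At 24 h it was also lost without replicate 3 of sham, 1 Hz or iTBS at 24 h, and at 48 h without sham at 0 h (4) or at 48 h (3), 1 Hz at 48 h (2 or 4) or iTBS at 48 h (2 or 4).

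The Prox1 probe was lower at 48 h by 0.72 (difference −0.72 ± 0.27, adjusted p = 0.045), with medians of 8.74 at 0 h and 7.80 at 48 h. That call was lost in 13 of 55 fits without an array (−0.81 to −0.60, adjusted p up to 0.10), all of them arrays of 0 or 48 h: 1 Hz at 0 h (1, 2) and 48 h (1, 2), sham at 0 h (1, 4) and 48 h (2, 3), and iTBS at 0 h (1, 3) and 48 h (1, 2, 4). The call was kept in only 4 of 12 alternative settings. Besides quantile normalization and normexp, it was lost with no filter on dim probes, with all 56 arrays and with no series block. The slide or the replicate as a block, and leaving out series D, also lost it. The probe moves with the 48 probes described above.

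The other members did not pass at 48 h: Neurod2 differed by −0.43 ± 0.26, Zbtb20 by −0.43 ± 0.22, Neurod6 by −0.25 ± 0.12, Slc17a7 by −0.25 ± 0.14, Emx2 by 0.19 ± 0.08 and Lhx2 by 0.07 ± 0.08, with adjusted p between 0.087 and 0.53. The dimmer Neurod2 probe was lower by 0.85 (−0.85 ± 0.23, adjusted p = 0.0047). Zbtb20 passed without 1 array (1 Hz at 48 h replicate 4, adjusted p = 0.049). Emx2 passed without 1 Hz at 48 h (replicate 3 or 4) or sham at 0 h (replicate 3), at an adjusted p down to 0.044. At 24 h Neurod6 (−0.33 ± 0.13, adjusted p = 0.080) passed in 3 fits without an array, and Tbr1 (−0.58 ± 0.22, adjusted p = 0.072) in 4.

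**Figure D3:**
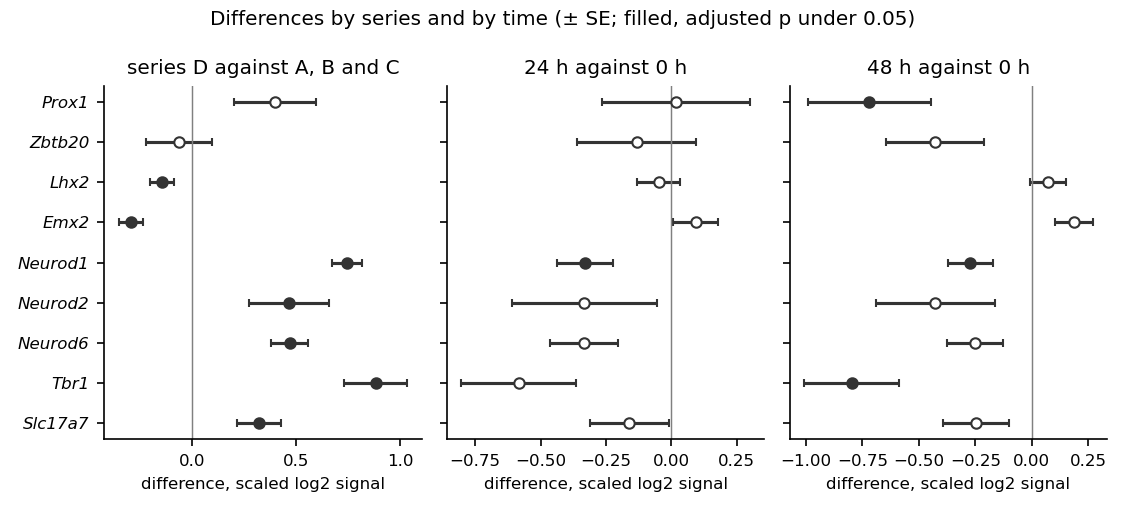
Fitted differences of the 9 members between series D and the mean of A, B and C, between 24 h and 0 h, and between 48 h and 0 h, in scaled log2 signal with the SE as bars; filled points passed at an adjusted p under 0.05. The basic helix-loop-helix genes and Tbr1 are to the right of 0 in the series panel and to the left of 0 in both time panels.

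Markers of other cells moved with time as well. At 48 h 6 of 8 astrocyte genes were higher (median 0.59; Gfap 1.64 ± 0.22, Aqp4 1.04 ± 0.16, S100b 1.03 ± 0.12) and 3 of 6 general neuron markers were lower (median −0.28; Map2 −0.64 ± 0.19, Tubb3 −0.63 ± 0.20, Stmn2 −0.38 ± 0.11). The part of these changes in the lower Tbr1, Neurod1 and Prox1 values was not tested. Time also lay on slides. In A, B, C and D alike, no slide held both 0 h and 48 h arrays of the same series. In A, B and C some other time lay on both slides of a neighbouring pair, which links the slides, whereas the D arrays of 48 h were the only D arrays on their slide. With the slide as a block over all series, none of the 4 calls by time was left. Tbr1 at 48 h was then at −0.999 (adjusted p = 0.070) and the Prox1 probe at −0.79 (adjusted p = 0.33). Neurod1 was at −0.06 at 24 h (adjusted p = 0.87) and at 0.0035 at 48 h (adjusted p = 0.99), while Emx2 at 48 h passed (0.50, adjusted p = 0.010).

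The time courses were not alike in the 4 series, as the plot of levels by hours and series shows. This was seen first and then fitted, with a mean for each series at each time and the arm as a term. In series D, Neurod6 stood at 7.02 to 7.65 on the 9 arrays of 0, 2 and 8 h and at 6.30 to 6.76 on the 6 arrays of 24 and 48 h, with no overlap. Neurod1 in the same series stood at 4.56 to 5.02 on the earlier arrays and at 4.02 to 4.40 on the later ones, again without overlap. Lhx2 was barely separated, at 6.486 to 6.96 and then 6.37 to 6.483. Its fitted differences from 0 h in D did not pass, at −0.12 ± 0.12 both at 24 h (adjusted p = 0.49) and at 48 h (adjusted p = 0.48). Of all probes, 5.16% were lower without overlap in this way in series D.

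**Figure D4:**
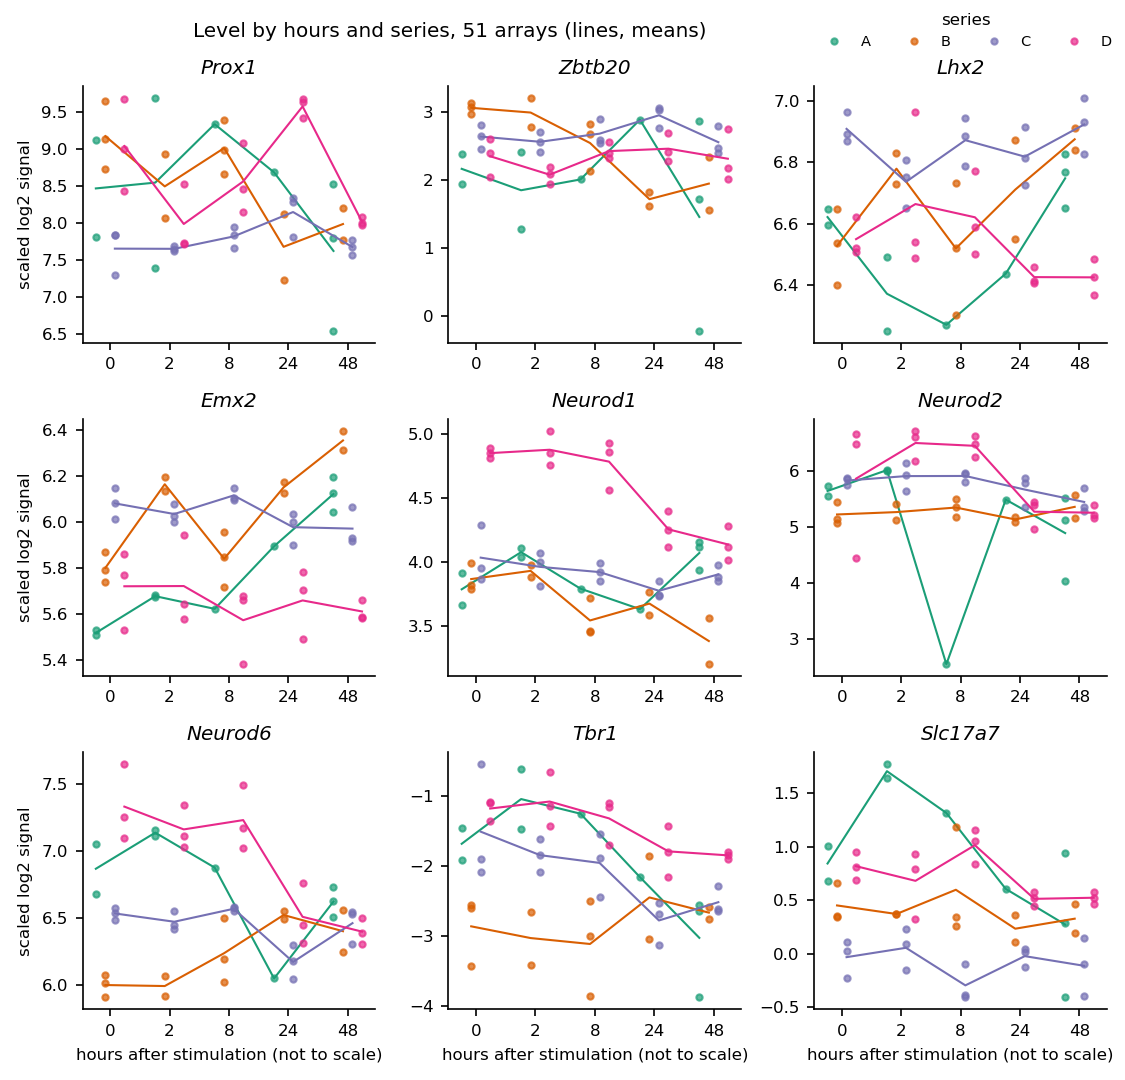
Scaled log2 signal of the 9 members by hours after stimulation (evenly spaced, not to scale) and series on the 51 sham, 1 Hz and iTBS arrays; lines join the means of a series. Neurod1 and Neurod6 of series D step down between 8 and 24 h, from medians of 4.85 and 7.17 over 0 to 8 h to 4.18 and 6.42 over 24 and 48 h.

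Neurod6 was lower at 48 h than at 0 h in series D (−0.93 ± 0.14, limma, adjusted p = 7.1e-06) and higher in series B (0.40 ± 0.16, adjusted p = 0.047), while A (−0.21 ± 0.14) and C (−0.09 ± 0.13) did not pass. The 0 h arrays of D were at 7.09, 7.25 and 7.65 and its 48 h arrays at 6.30, 6.39 and 6.50, whereas B was between 5.91 and 6.07 at 0 h and between 6.24 and 6.56 at 48 h. At 48 h the D arrays thus lay among those of B and C, and no longer above them. The test of the difference itself, D minus the mean of A, B and C, gave −0.96 ± 0.16 (adjusted p = 0.00014), where 15.6% of all probes passed. At 24 h the same difference was −0.61 ± 0.17 (adjusted p = 0.025), where 6.59% passed. The lower level at 24 h was not particular to D, since Neurod6 was lower in D by 0.82 (−0.82 ± 0.14, adjusted p = 4.9e-05) and in A, which had a single array of 24 h, by 0.78 (−0.78 ± 0.20, adjusted p = 0.015). It was at −0.38 ± 0.13 in C (adjusted p = 0.22) and was higher in B (0.52 ± 0.16, adjusted p = 0.011). With the slide as a block the change in A passed (−1.02, adjusted p = 0.012), and those in D (−1.10, adjusted p = 0.62) and B (0.19, adjusted p = 0.78) did not.

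Neurod1 was lower at 48 h in D (−0.71 ± 0.13, adjusted p = 0.00011) and in B (−0.48 ± 0.14, adjusted p = 0.010), was at 0.33 ± 0.13 in A (adjusted p = 0.070) and at −0.16 ± 0.12 in C (adjusted p = 0.49). The 3 D arrays of 0 h lay between 4.81 and 4.89 and those of 48 h between 4.02 and 4.28. D minus the others was −0.61 ± 0.15 (adjusted p = 0.0064). Without series D, the pooled difference of Neurod1 at 48 h was −0.09 (adjusted p = 0.62) and that at 24 h −0.22 (adjusted p = 0.37). Tbr1 without series D remained lower at 48 h, by 0.89 (−0.89, adjusted p = 0.040), and it was then the only member called at any time.

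Emx2 rose by 48 h in A (0.54 ± 0.11, adjusted p = 0.00027) and in B (0.56 ± 0.12, adjusted p = 0.00033) but was at −0.06 ± 0.10 in C and −0.11 ± 0.10 in D, neither of which passed. In A its 2 arrays of 0 h were at 5.51 and 5.53 and its 3 arrays of 48 h between 6.04 and 6.19, a clear separation. In D the arrays of 0 h (5.53 to 5.86) and 48 h (5.58 to 5.66) overlapped. D minus the others was −0.45 ± 0.12 (adjusted p = 0.011). Tbr1 was lower at 48 h in A (−1.5 ± 0.37, adjusted p = 0.0033), and D minus the others was 0.10 ± 0.43 (adjusted p = 0.90). In the same limma fit Tbr1 did not pass in C (−0.93 ± 0.35, adjusted p = 0.10) or D (−0.67 ± 0.36, adjusted p = 0.19). In B it was at 0.12 ± 0.41 (adjusted p = 0.85). The 3 arrays of A at 48 h were at −3.87, −2.64 and −2.56, and the lowest was that of 1 Hz. Lhx2 rose in B (0.34 ± 0.13, adjusted p = 0.043), the Zbtb20 probe fell in B by 1.09 (−1.09 ± 0.43, adjusted p = 0.047), and no other member passed at 48 h within a series. At 24 h the Prox1 probe (−1.56 ± 0.50, adjusted p = 0.017) and Zbtb20 (−1.38 ± 0.43, adjusted p = 0.015) were lower in B, where 28.5% of all probes passed. Of all probes, 21.1% passed at 48 h in A, 33.3% in B, 7.42% in C and 22% in D. With the slide as a block, the differences of D from the others were −1.05 ± 0.45 for Neurod6, −0.82 ± 0.47 for Neurod1 and −0.07 ± 0.35 for Emx2, and none passed, while the changes of Emx2 in A (0.52, adjusted p = 0.026) and B (0.74, adjusted p = 0.016) still did. At 48 h without the slide block, Tubb3 alone among the general neuron markers also fell more in D (−1.23 ± 0.26, adjusted p = 0.0018). Stmn2 (−0.46 ± 0.18) and Rbfox3 (−0.62 ± 0.36) did not pass. Nor did Map2 (0.36 ± 0.40), Syt1 (0.17 ± 0.44) and Snap25 (0.02 ± 0.17), which lay above 0. Gfap rose in all 4 series (by 1.22 to 2.01), with no called difference of D from the others (0.21 ± 0.32). Not all astrocyte genes rose, and Aldh1l1 was lower in C (−0.90 ± 0.20, adjusted p = 0.0028).

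Stimulation was the study's question, and no member passed in any comparison of arms. Against sham, 0 of 45 tests passed for 1 Hz (9 genes at 5 times) and 0 of 45 for iTBS, where between 0% and 0.0056% of all probes passed at a given time. None of the 45 tests of iTBS against 1 Hz, the 9 of untreated against sham cultures or the 18 of each protocol averaged over times passed either. In limma on group means, 0 of all these member tests had an unadjusted p under 0.05 either. Of all probes, an unadjusted p under 0.05 was reached for 1 Hz against sham by 0.899%, 1.11%, 1.32%, 2.29% and 1.47%, from the earliest time to the latest. For iTBS against sham the shares were 3.94%, 2.12%, 0.883%, 0.552% and 1.78% in the same order, and for iTBS against 1 Hz they were 1.48%, 0.835%, 0.975%, 1.35% and 3.35%. They were 2.43% for untreated cultures, 0.692% for 1 Hz averaged over times and 0.667% for iTBS averaged over times.

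No member had groups that did not overlap in any of these comparisons at a single time. Of all probes, groups did not overlap for 1 Hz against sham in 2.69%, 4.47%, 1.67%, 6.7% and 1.19%, from the earliest time to the latest. For iTBS against sham the shares in that order were 2.24%, 1.06%, 2.78%, 2.13% and 1.44%, for iTBS against 1 Hz they were 1.94%, 4.25%, 1.55%, 5.26% and 0.911%, and for untreated cultures the share was 2.01%. The median SE of a member's difference was 0.39, and 0.18 for the averages over times.

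**Figure D5:**
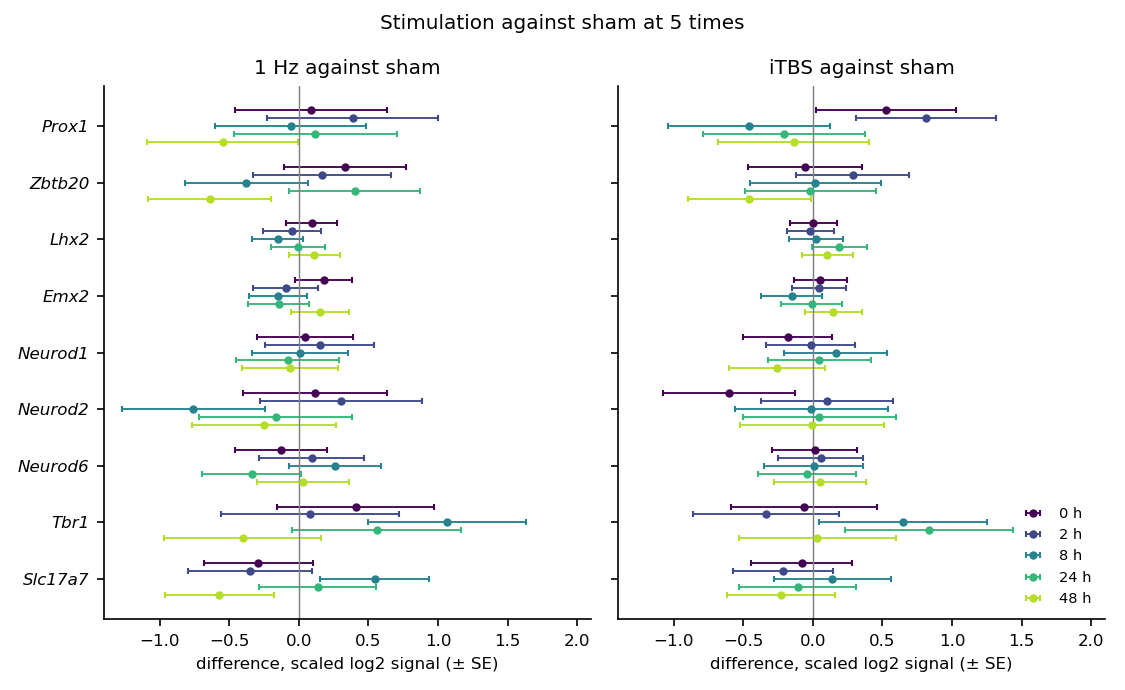
Differences of 1 Hz (left) and iTBS (right) from sham in scaled log2 signal at the 5 times (colours), with the SE from the fit of group means as bars. The intervals spread to both sides of 0, and the widest difference is 1.06 for Tbr1 at 8 h of 1 Hz.

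The smallest p belonged to Tbr1. At 8 h its 3 sham arrays were at −3.85, −2.44 and −1.70 and its 4 arrays of 1 Hz at −2.49, −1.54, −1.26 and −1.11. The groups overlapped, and the 1 Hz array was the higher in each of the 3 series that had both. The difference was 1.06 ± 0.57 (limma, unadjusted p = 0.068, adjusted p = 1.00). With the series as a block it was 1.01 ± 0.37 (unadjusted p = 0.010, adjusted p = 1.00).

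The Prox1 probe was at 7.40, 7.62, 7.72 and 8.07 on the sham arrays of 2 h and at 7.70, 7.73, 8.93 and 9.70 on the iTBS arrays. The upper 2 iTBS arrays stood above all sham arrays, and the other 2 lay among them. Within each of the 4 series the iTBS array was above the sham array, by 0.0089 to 2.30. The difference of 0.81 ± 0.50, which had the smallest p of iTBS against sham, did not pass (unadjusted p = 0.12). Neurod1 in untreated cultures was at 3.31, 3.67, 3.77 and 4.08, against 3.79, 3.91, 4.29 and 4.89 in sham cultures at 0 h. The ranges overlapped, the highest sham array was that of series D, which had no untreated culture, and all 4 untreated arrays lay below the sham array of their own series. The difference was −0.51 ± 0.32 (limma, unadjusted p = 0.12), and with the series as a block it was −0.41 ± 0.17 (unadjusted p = 0.018, adjusted p = 1.00).

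With the series as a block the SEs shrank (median 0.26), and still none passed. An unadjusted p under 0.05 was then reached by 3 of 45 tests of 1 Hz against sham (2.94% of all probes), 1 of 45 of iTBS against sham (4.54%), 1 of 45 of iTBS against 1 Hz (3.63%) and 1 of 9 of untreated against sham (4.49%). The interaction of arm and time gave adjusted p values of 1.00 for every member. Averaged over times, 1 Hz differed from sham by −0.15 (Neurod2) to 0.34 (Tbr1), and iTBS by −0.10 (Slc17a7) to 0.22 (Tbr1). Ordered by the mean of the 16 groups, neighbours lay within the larger of their SDs in 15 of 15 steps for 8 members and in 14 of 15 for Neurod6. Steps between so many ordered means are small by construction, and the SDs also hold the spread between series. This count therefore cannot show that the groups are alike.

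Related genes of the excitatory lineage were read from lists of progenitor, patterning, cortical layer, hippocampal field, glutamatergic and Cajal-Retzius genes, 53 in all, of which 45 were tested. In series D 23 were higher, 10 were lower and 12 did not pass (73.3% passed, where 53% of all probes did; median 0.26). Among the cortical layer factors 7 of 13 were higher in D and 3 lower. Foxp2 (1.59 ± 0.13), which was well above background on 48 of 55 arrays, and Ldb2 (1.10 ± 0.08) were among the higher, while Pou3f2 (−0.47 ± 0.12) and Bcl11b (−0.36 ± 0.08), the factor of subcortical projection neurons, were lower. Among 10 patterning genes 5 were higher, among them Lhx9 (0.95 ± 0.13), Lmo4 (0.67 ± 0.07) and Lmx1a (0.67 ± 0.11), and 4 were lower, with Dmrt3 at −1.77 ± 0.09. Of 9 hippocampal field genes 4 were higher, led by Calb1 (0.85 ± 0.11), a marker of granule cells and of CA1, and Rgs14 (0.71 ± 0.10), a marker of CA2, while Fibcd1 (−0.32 ± 0.12), a marker of CA1, and Amigo2 (−0.24 ± 0.09) were lower. Among 5 glutamatergic genes 3 were higher: Nrgn (1.61 ± 0.17), Slc17a8 (0.41 ± 0.17) and Slc17a6 (0.26 ± 0.06), the transporter VGLUT2. Of 4 Cajal-Retzius genes tested 2 were higher, Calb2 (1.71 ± 0.11), which inhibitory neurons also express, and Lhx1 (0.44 ± 0.13). Of 4 progenitor genes tested Neurod4 (0.78 ± 0.13) and Pax6 (0.26 ± 0.07) were higher and Sox2 (−0.69 ± 0.07), which glia also express, was lower.

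At 48 h 6 of the 45 related genes were higher and 9 lower than at 0 h (33.3% passed, where 27% of all probes did; median −0.14). The lower genes included 4 of 13 cortical layer factors, with Bcl11b (−0.67 ± 0.12), Zbtb18 (−0.66 ± 0.18) and Fezf2 (−0.37 ± 0.10) among them, and none of that list was higher. Pou3f1 (−0.67 ± 0.19), a marker of CA1, and Reln (−0.31 ± 0.09), the secreted protein of Cajal-Retzius cells, were lower too. Dmrt3 (0.55 ± 0.13), Neurod4 (0.69 ± 0.19), Pax6 (0.39 ± 0.10), Calb1 (0.43 ± 0.15) and Rgs14 (0.38 ± 0.14) were among the higher genes. At 24 h 1 was higher and 7 were lower (17.8% passed, where 14% of all probes did). Averaged over times, 0 of the 45 passed for either protocol against sham, where 0% of all probes did.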

How the data were processed

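RNA of 56 samples had been hybridised by the authors as Cy3-labelled cRNA to 1-colour Agilent rat arrays and read with Agilent Feature Extraction, whose deposited files give the processed signal intensity of each spot, already background-corrected, with flags. The deposited series table holds score values that the authors made by turning the log signal of each array into a z-score. It differed by less than 0.005 from z-scores computed from the scanner files and served as an alternative.

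For this report, log2 processed intensities were averaged over the spots of a probe without flagged spots, and each array was centred on its mean, divided by its SD and multiplied by the median SD of all arrays (4.06). Of 45598 probes, 420 with missing values and 9484 too dim (well above background on fewer than 3 arrays) were left out, which left 35694. Symbols came from a match of transcript accessions to RefSeq (46.3% of probes). 1 array with a failed grid was left out. limma 3.58.1 in R 4.3.3 was fitted to 16 group means (39 residual degrees of freedom), and with the series as a term (36) for times and series, with Benjamini-Hochberg adjustment over all tested probes and a threshold of 0.05. The fits were also run on simulated data with planted changes, independent noise and no other series or slide effects. That run cannot show how such effects bear on the fits here. Members are named in every comparison by their brightest probe; of each list, up to 3 genes per direction with the largest change among those past the threshold; and for each member the 2 named genes with the highest correlation. The members and lists were chosen with earlier results of these data known, and the fit of series by time was chosen after the data were seen. The number of arrays limits the precision. Probe sequences were not used here, so which transcripts a probe can bind was not checked. Normexp used the median spot signal with an offset of 50. Alternatives are described in the closing section. Values of some single genes of the lists are not reported here.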

Additional observations from a re-analysis of the deposited data

Results flagged for a closer look

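Among 72 sets of 4 arrays (9 genes in 8 groups), 3 held an array far from the other 3, where chance gives about 1 in 20. Of the 1 Hz group at 48 h, replicate 1 (series A) was far below the others in Prox1 (6.545, against 7.769 to 7.976, gap over range 0.855) and in Zbtb20 (−0.216, against 2.339 to 2.751, with 0.861). That array had the highest 75th percentile of signal of all arrays used (18416, against at most 9939 in series D). Before scaling, its Prox1 signal (34696) was close to that of the series A sham array at 48 h (34483). Its Zbtb20 signal before scaling (198) was already below that of the same sham array (698). The part of the array's brightness in these low values was not tested. In Slc17a7, replicate 3 (series C) of the 1 Hz group at 8 h was at −0.410, against 1.153 to 1.315 (0.906).

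In 4 cases the change with time differed between series D and the mean of A, B and C in a test of the difference itself (limma, adjusted over all probes): Neurod6 at 24 h (−0.61, adjusted p = 0.025) and at 48 h (−0.96, adjusted p = 0.00014), Neurod1 at 48 h (−0.61, adjusted p = 0.0064) and Emx2 at 48 h (−0.45, adjusted p = 0.011). No slide held both 0 h and 48 h arrays of the same series, and with the slide as a block none of the 4 passed.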

How the results depend on the processing

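With all 56 arrays, the array with the failed grid included, 6 member tests passed for 1 Hz against sham and 5 for iTBS against 1 Hz, while the counts fell to 0 for times, 3 for the series F test and 3 for series D. The 4 calls by time became 2 with no filter on dim probes, 0 with no series block, 1 with the slide as a block (Emx2 at 48 h, none of the 4) and, chosen after seeing the data, 1 without series D. Of all probes, 3.83% passed at 24 h and 10.8% at 48 h with no series block. With the slide as a block 4.8% and 16.6% did. Shares were not computed with all 56 arrays, no filter, the replicate block, without series D or without single arrays. The member counts there have no such measure beside them. Leaving out each array in turn gave 1 to 6 calls by time, 5 to 8 of 9 for series D, 9 for the F test and 0 in every comparison of arms; 1 call was left without 1 Hz at 0 h replicate 1, and 2 without iTBS at 0 h (replicate 1 or 4), sham at 0 h (4), 1 Hz at 48 h (2), iTBS at 48 h (2 or 4) or sham at 48 h (3). Replicate numbers did not pair the samples: deviations of same-numbered arrays correlated at 0.16 on average (lowest −0.46), against 0.40 within a series. All 15 arrays of D carry the number 3 or 4 (8 and 7), so the replicate block overlaps the series; with it, 1 of the 7 calls for D was left, Neurod2 was at −0.24 and Slc17a7 at −0.22. With the slide as a block Neurod1 at 48 h was at 0.0035. Over 379 values of single genes under these settings 331 stayed on their side of the threshold, 39 lost and 6 gained a call, and 3 called values changed sign (given above), while some values that were not called changed sign too; the causes were not tested. Neurod1 in series D passed under 10 of 10 alternatives (0.68 to 0.82). The differences of D from the others in the change at 48 h passed for Neurod6, Neurod1 and Emx2 in 7 of 9 settings and without any single array. For Neurod2 that difference was −0.30 and passed without iTBS at 0 h replicate 4 (−1.04, adjusted p = 0.021). The study's criteria, as applied here, gave 0 member calls for arms. The share of all probes that met them was not computed, so this count does not set the members apart. They ask for a mean score above 0, which Tbr1 did not reach in any group. Dim signal limits Tbr1, which was well above background on 40 of 55 arrays and is not tested where every array must be.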
